A study of Mus musculus with 2 samples.

Results

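The transcription factor Foxn1 and 6 genes that are known from cortical thymic epithelial cells (cTECs), Psmb11, Prss16, Ctsl, Cd83, Ly75 and Tbata, were described in 2 droplet scRNA-seq libraries of mouse thymic epithelial cells (TECs). The 7 genes were chosen by symbol from the 32285 listed genes, and all 7 symbols stood once in the list. TECs, sorted as EpCAM+ CD45- TER119- cells, came from C57BL/6 mice. One library held TECs of mice that had received a sublethal dose of 5.5 Gy at 7 weeks of age and were taken 15 days later, and the other held TECs of age-matched mice without irradiation, both at 9 weeks of age by the labels. Each library was a pool of 3 mice and there was 1 library per condition, so that no difference between them has a replicate check and none was tested.

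The deposit's labels name the libraries the other way round. The library called control here held 4937 barcodes and is labelled as irradiated in the deposit, and the library called irradiated here held 7167 barcodes and is labelled as control. The names used here follow the study's count of cells left in each condition, which the study's limits on detected genes and mitochondrial share returned exactly for these libraries. Every direction between the libraries would reverse under the deposit's labels. The limits kept 3233 control and 5070 irradiated cells, with 51586327 and 75542631 unique molecular identifiers (UMIs), each of which marks a captured RNA molecule. The median cell held 13412 and 13003.5 UMIs. The libraries shared 17 barcodes, 5 of them among the kept cells.

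Foxn1 is the forkhead factor without which the thymic epithelium does not mature and which keeps it functional in the adult. In cTECs the peptides that are shown to immature thymocytes are made by special enzymes. Psmb11 encodes the catalytic subunit β5t of the thymoproteasome, which makes peptides for MHC class I. Prss16, the thymus-specific serine protease, and Ctsl, the lysosomal protease cathepsin L, serve the MHC class II route. Cd83 holds MHC class II on the cell surface, Ly75 is the endocytic receptor CD205 and a classical surface marker of cTECs, and Tbata is a gene first described in thymus, brain and testis.

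By GENCODE M21 on GRCm38, Foxn1 lay on chromosome 11 at 78357577 to 78386558, Psmb11 on chromosome 14 at 54621433 to 54629556, and Prss16 on chromosome 13 at 22002173 to 22009742. Ctsl and Cd83 lay on the same chromosome 13, at 64359337 to 64370890 and at 43784775 to 43803132. Ly75 lay on chromosome 2 at 60292103 to 60383303 and Tbata on chromosome 10 at 61171954 to 61188841. All 7 are protein-coding. Antisense genes overlap Ctsl (Gm47123, with 178 control and 217 irradiated UMIs) and Ly75 (Gm13571, with 44 and 46). A processed pseudogene lies within Ctsl on its own strand, but it is not among the listed genes, so no UMI was counted to it.

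The core letters that Foxn1 is known to bind, ACGC, were searched on both strands of promoter windows from RefSeq, which run from 250 bases before to 50 bases after a gene's start on GRCm38.p6. Of the 7 genes, 5 matched a window, and Prss16 and Cd83 were not analysed here. Of 32851 windows of all genes, 55.3% held ACGC and 27.2% held the longer form GACGC, which contains it. The window of Psmb11 held GACGC at 2 places, both on the strand opposite to the gene, at positions -239 and -62 counted from the start, and 8.15% of all windows held 2 or more. The window of Ctsl held ACGC at 4 places, at -247, -15, 13 and 19, and no GACGC, and 9.27% of all windows held ACGC 4 or more times. The window of Ly75 held ACGC once, at -23, and the windows of Foxn1 and Tbata held none. The 3 windows with a match are shown 5′ to 3′ on the gene's strand, so that the places can be seen, with ACGC or its complement GCGT in capitals. Positions are those of the first capital letter. The RefSeq starts of Psmb11 and Ctsl lay 3877 and 370 bases inside the GENCODE genes.
Psmb11, chr14:54625060-54625359, plus strand: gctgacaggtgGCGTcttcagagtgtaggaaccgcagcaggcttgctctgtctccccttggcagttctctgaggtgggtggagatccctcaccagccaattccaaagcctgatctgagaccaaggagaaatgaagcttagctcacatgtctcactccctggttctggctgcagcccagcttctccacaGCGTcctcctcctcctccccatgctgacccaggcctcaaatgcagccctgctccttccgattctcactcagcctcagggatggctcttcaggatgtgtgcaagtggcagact
Ctsl, chr13:64370471-64370770, minus strand: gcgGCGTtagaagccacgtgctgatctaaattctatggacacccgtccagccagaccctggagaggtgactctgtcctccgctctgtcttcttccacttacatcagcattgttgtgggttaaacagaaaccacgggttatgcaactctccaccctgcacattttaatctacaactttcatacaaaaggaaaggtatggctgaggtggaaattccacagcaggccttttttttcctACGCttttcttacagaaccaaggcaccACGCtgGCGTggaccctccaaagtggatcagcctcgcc
Ly75, chr2:60383224-60383523, minus strand: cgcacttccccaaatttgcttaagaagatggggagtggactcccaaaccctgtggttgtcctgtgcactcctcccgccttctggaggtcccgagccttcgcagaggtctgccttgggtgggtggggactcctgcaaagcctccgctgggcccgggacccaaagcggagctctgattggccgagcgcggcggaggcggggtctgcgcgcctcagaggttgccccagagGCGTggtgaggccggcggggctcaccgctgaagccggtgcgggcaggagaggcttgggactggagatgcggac

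Cells were sorted into 13 gates by UMIs of marker genes, none of them among the 7 genes, and the rest were left ungated. cTEC-like cells had at least 10 UMIs of Ccl25 and 5 of Cxcl12, the cortical chemokines, fewer than 3 of Aire, fewer than 20 of Ccl21a and fewer than 5 of 14 thymocyte genes. There were 90 such control cells (2.78% of kept cells, 2.24 to 3.41) and 170 irradiated cells (3.35%, 2.88 to 3.89). Ccl25 is itself known as a target of Foxn1, so the gate is not independent of what Foxn1 does. A second cortical gate held the cells that met the same limits but had RNA of 5 or more thymocyte genes, 25 control and 80 irradiated cells. Nurse cTECs that enclose thymocytes and droplets of a cTEC with a thymocyte were not told apart. A further cortical gate held 28 control and 107 irradiated cells with at least 20 UMIs of Ccl21a, a chemokine of medullary TECs (mTECs), beside Ccl25 and Cxcl12. These are called Ccl25-Ccl21a double cells, and doublets were not removed. They are counted as cortical by Ccl25 and Cxcl12 only. Their level of Krt5, a marker of Ccl21a-high cells, was 10.6 and 12.1 UMIs per 10000. It was 2.42 and 5.29 in cTEC-like cells and 18.7 and 19.6 in Ccl21a-high cells. The median double cell held 23707 control and 15123 irradiated UMIs, against 16123 and 15959.5 in cTEC-like cells. The cTEC markers Enpep, Ackr4 and Slc46a2, which the gates did not use, were present in the cTEC-like cells. Enpep, which encodes Ly51, stood there at 1.37 control and 1.75 irradiated UMIs per 10000 UMIs of the gate, and at 0.127 and 0.0765 in Aire-high cells. Slc46a2 stood at 3.51 and 3.98 in cTEC-like cells, at 4.45 and 4.82 in double cells and at 1.84 and 1.81 in Ccl21a-high cells. Ackr4 did not set the gate apart, with 2.30 and 1.10 in cTEC-like cells, 3.802 and 2.71 in Pdpn-positive cells and 1.57 and 1.11 in ungated cells.

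A level is the sum of a gene's UMIs over the cells of a gate per 10000 UMIs of those cells, with an exact Poisson 95% interval. Shares of cells carry exact Clopper-Pearson 95% intervals. Both cover counting error only and not the spread between cells or mice.

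Foxn1 differed least between gates. Its level in cTEC-like cells was 1.72 UMIs per 10000 in control cells (1.52 to 1.94, 270 UMIs) and 1.61 in irradiated cells (1.47 to 1.76, 461 UMIs). In the cells with thymocyte RNA it was 1.52 (1.27 to 1.804) and 1.96 (1.78 to 2.15), and in the double cells it was 1.76 (1.44 to 2.13) and 1.45 (1.28 to 1.63). The intervals of the 3 cortical gates overlapped among control cells, and among irradiated cells that of the gate with thymocyte RNA stood above the other two. Next came the Aire-high cells, mTECs with at least 10 UMIs of the autoimmune regulator, with 0.881 (0.830 to 0.935) and 0.908 (0.863 to 0.956). Aire-intermediate cells, with fewer Aire UMIs, held 0.8 and 0.791, and their intervals overlapped those of the Aire-high cells. Dividing cells had a Foxn1 level of 0.699 and 0.662, and Ccl21a-high cells one of 0.413 and 0.419. Tuft-like cells, which resemble chemosensory cells of the gut, were lowest with 0.0798 (0.0481 to 0.125) and 0.121 (0.0760 to 0.184), and in the irradiated library their interval overlapped that of enterocyte-like cells. The control cTEC-like level was thus 1.95 times that of Aire-high cells, 4.17 times that of Ccl21a-high cells and 21.6 times that of tuft-like cells, and the irradiated one 1.77, 3.85 and 13.3 times.

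Psmb11 was found mostly in cortical cells. It stood at 10.7 UMIs per 10000 in control cTEC-like cells (10.2 to 11.3, 1682 UMIs) and 12.0 in irradiated ones (11.6 to 12.4, 3432 UMIs). The cells with thymocyte RNA held more, 12.6 (11.8 to 13.3) and 13.4 (12.9 to 13.9), and the double cells held 5.42 (4.85 to 6.05) and 6.54 (6.17 to 6.92). In Aire-high cells the level was 0.1497 (0.129 to 0.173) and 0.103 (0.0884 to 0.120), and in Ccl21a-high cells it was 0.0896 (0.0737 to 0.108) and 0.171 (0.153 to 0.191). cTEC-like cells stood 71.7 and 116 times above Aire-high cells, and 120 and 70.0 times above Ccl21a-high cells. Dividing control cells held 3 UMIs of Psmb11 among 260 cells, while dividing irradiated cells held 59 among 670 cells. Of these 59, 27 (45.8%) came from 3 cells. In irradiated microfold-like cells, 0 of 791023 UMIs were from Psmb11, which allows a level of up to 0.0379 (3 counts of the total).

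Prss16 followed the same order of cortical gates. Its level was 65.0 (63.3 to 66.8) and 74.7 (73.5 to 75.8) in the cells with thymocyte RNA, 46.4 (45.3 to 47.5) and 62.2 (61.3 to 63.2) in cTEC-like cells, and 26.0 (24.8 to 27.4) and 40.4 (39.5 to 41.3) in double cells. Outside the cortical gates it stood highest, apart from other cells with thymocyte RNA, in the Pdpn-positive control cells, with 1.97 (1.78 to 2.19). The Pdpn-positive irradiated cells had 2.10 (1.84 to 2.38), and Aire-intermediate and ungated irradiated cells lay within overlapping intervals of them. Aire-high cells held 0.663 and 0.674, so that cTEC-like cells stood 70.0 and 92.4 times above them. In each library 3 Aire-high cells held 39.4% and 40.1% of these UMIs, and without them the levels were 0.404 (0.370 to 0.442) and 0.406 (0.375 to 0.438).

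Ctsl was high in cortical cells and also in part of the medulla. In cTEC-like cells it stood at 125 (123 to 127) in the control and 141 (140 to 143) in the irradiated library. The double cells were highest, with 155 (152 to 159) and 159 (157 to 161), and the cells with thymocyte RNA had 150 (147 to 152) and 155 (153 to 157). Ccl21a-high cells, the Ccl21a-producing mTECs, held 23.9 (23.6 to 24.1) and 29.1 (28.8 to 29.3), and Pdpn-positive cells 28.5 (27.8 to 29.3) and 23.0 (22.1 to 23.9). Aire-high cells held 1.796 (1.72 to 1.87) and 2.90 (2.82 to 2.98). The Ctsl level in cTEC-like cells was therefore 5.23 and 4.86 times that of Ccl21a-high cells but 69.5 and 48.7 times that of Aire-high cells. In each library 3 Aire-high cells held 31.7% and 27.6% of the Ctsl UMIs of that gate. Without them the levels there were 1.24 (1.17 to 1.30) and 2.11 (2.04 to 2.18).

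Cd83 had the reverse medullary pattern of Ctsl, with more in Aire-high than in Ccl21a-high cells. Its level was 3.46 (3.18 to 3.77) and 3.44 (3.23 to 3.66) in cTEC-like cells and 4.52 (4.08 to 4.997) and 4.77 (4.49 to 5.06) in those with thymocyte RNA. Double cells had 0.772 (0.565 to 1.03) and 1.47 (1.30 to 1.66), 4.49 and 2.34 times less than cTEC-like cells. In the medulla, Aire-high cells held 0.284 and 0.259 and Ccl21a-high cells 0.0161 and 0.0123, so that cTEC-like cells stood 12.2 and 13.3 times above the former and 215 and 280 times above the latter. Cd83 is also known from dendritic cells and B cells. Of 5 dendritic cell markers, Itgax, Flt3, Xcr1 and Siglech were at 0 in cTEC-like cells of both libraries, and the list summed to 0.0255 and 0.0314 UMIs per 10000. Of 3 B cell markers, Cd79a and Ms4a1 were at 0, and the level of the remaining marker, Cd79b, is not reported here. In control keratinocyte-like cells 0 of 825129 UMIs were from Cd83, which allows a level of up to 0.0364.

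Ly75 stood at 7.90 (7.46 to 8.35) and 9.06 (8.71 to 9.42) in cTEC-like cells, at 10.7 (10.0 to 11.4) and 11.8 (11.3 to 12.3) with thymocyte RNA, and at 4.36 (3.85 to 4.93) and 4.91 (4.59 to 5.25) in double cells. Pdpn-positive cells followed, after other cells with thymocyte RNA, with 1.33 and 1.57. Aire-high and Ccl21a-high cells stood close to each other in Ly75, at 0.3601 and 0.328 in the control and at 0.458 and 0.404 in the irradiated library, and the intervals of the pair overlapped in each library. Enterocyte-like cells (0.570 and 0.781) and microfold-like cells (0.622 and 0.619) held more Ly75 than Ccl21a-high cells.

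Tbata, like Foxn1, was next highest in Aire-high cells. In cTEC-like cells it stood at 85.1 (83.6 to 86.5) and 124 (122 to 125), with thymocyte RNA at 123 (121 to 126) and 134 (132 to 135), and in double cells at 68.6 (66.6 to 70.8) and 101 (99.0 to 102). Among the cells without thymocyte RNA outside the cortical gates, Aire-high cells led with 13.4 (13.2 to 13.6) and 11.9 (11.7 to 12.1), followed by Aire-intermediate cells with 11.02 and 9.57. Ccl21a-high cells held 2.53 and 3.18 and tuft-like cells 0.630 and 0.739. Tbata in cTEC-like cells was 6.33 and 10.4 times its level in Aire-high cells, and 33.6 and 38.9 times its level in Ccl21a-high cells.

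**Figure D1:**
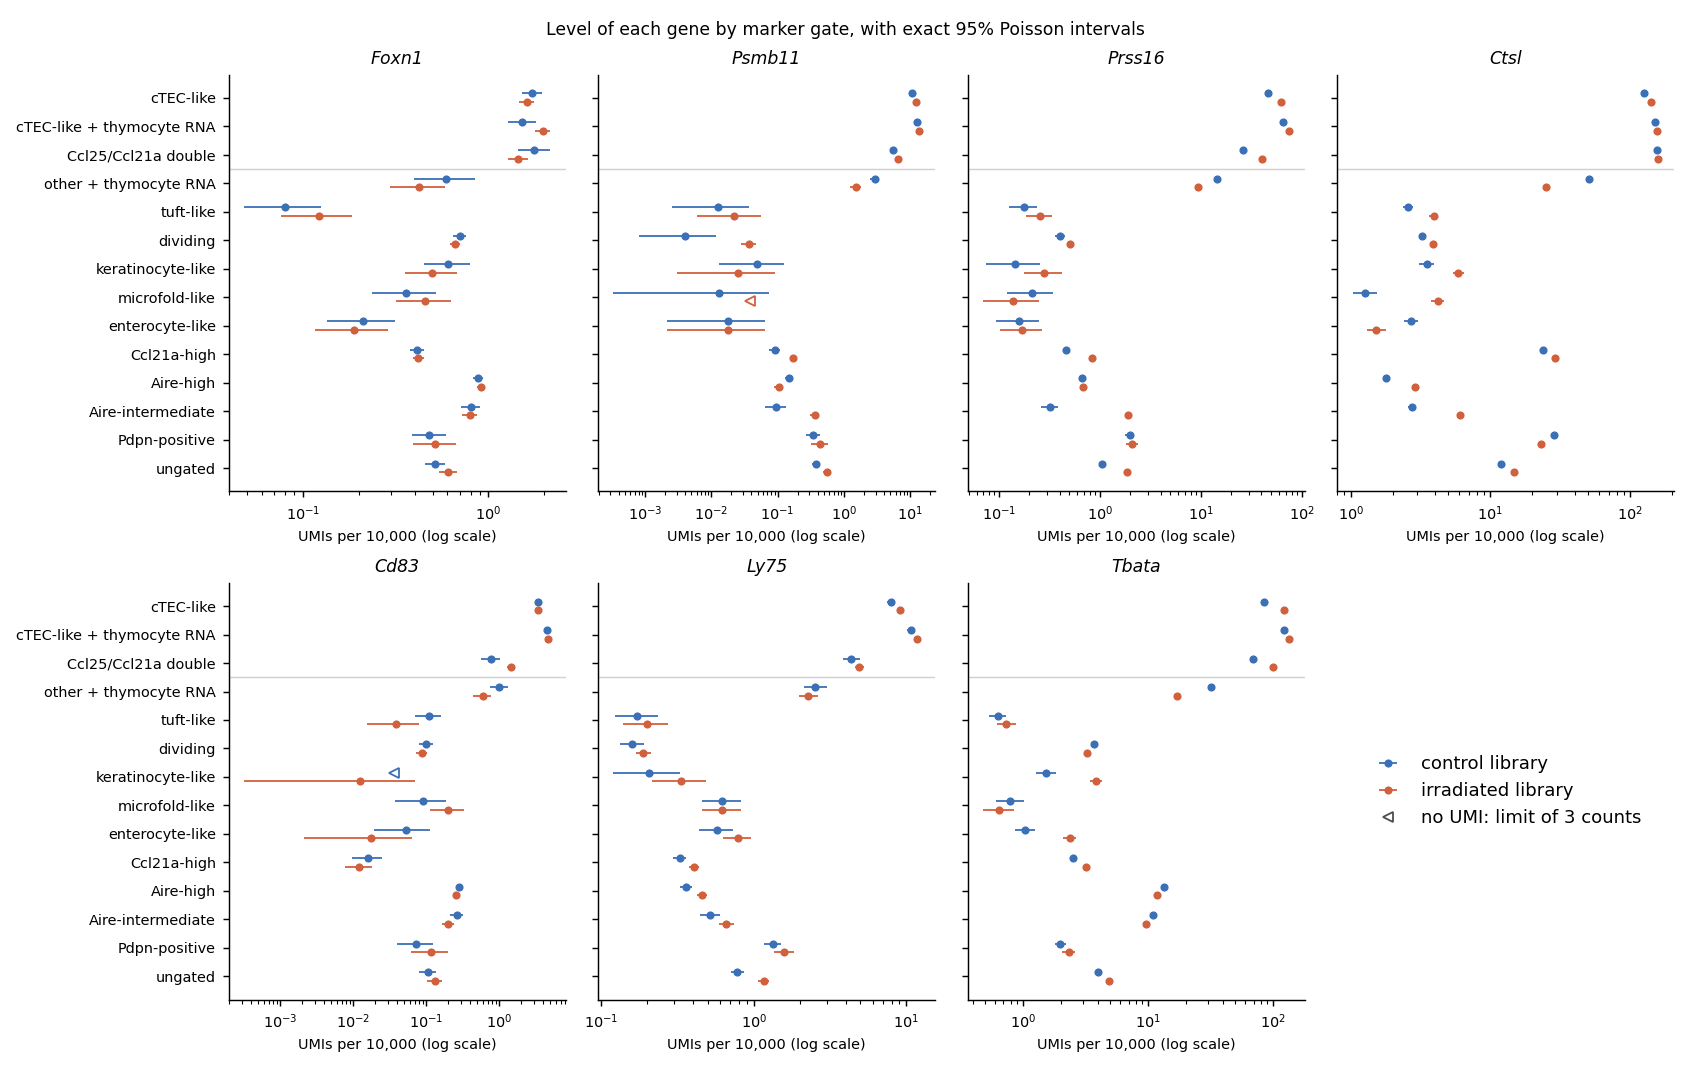
Level of each gene, in UMIs per 10000 UMIs of the gate on a log scale, in the 14 groups of cells (13 gates and the ungated cells). Points are the control (blue) and irradiated (orange) library, bars are exact 95% Poisson intervals, and open triangles mark the limit of 3 counts where no UMI was found. Each gene had its highest level in one of the 3 cortical gates, above the grey line. Foxn1 and Tbata came next in Aire-high cells and Ctsl in Ccl21a-high and Pdpn-positive cells, leaving aside other cells with thymocyte RNA.

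Across 22 points, 11 groups of cells with at least 30 cells in each library by 2 libraries, the patterns of Psmb11 and Prss16 were most alike, with a Pearson r of 0.98 of log2 levels. Ly75 came closest to Psmb11, at 0.91. Foxn1 was closest to Tbata, at 0.86, and farthest from Ctsl, at 0.50. These are descriptions, since the points share libraries and the cTEC-like gate, the 1 cortical gate with enough cells, weighs on each r. Among other genes with at least 100 UMIs, the most alike were Gcat, Bnip3l, Etfa, Bok and Spats2 to Foxn1 (0.86 to 0.89), Tmem131l, Ednrb, Gm11290, Gm1604a and Pepd to Psmb11 (0.96 to 0.97), and Synm, Ndufa11, 4933439K11Rik, Castor1 and Mmp2 to Ctsl (0.96 to 0.98). Ednrb, the endothelin receptor B, Tmem131l, Gm11290 and Gm1604a were also among the 5 most like Prss16. For Ly75 the list held Psmb9, the immunoproteasome subunit β1i, at 0.93, and was led by Aldh1l1 at 0.95. For Cd83 it was led by Inmt at 0.93, and for Tbata by Pds5b at 0.96.

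The 3 cortical gates together held 4.42% of the control and 7.04% of the irradiated cells, and 5.85% and 9.12% of all UMIs. They held 80.3% and 86.0% of the Psmb11 UMIs and 80.1% and 86.2% of the Prss16 UMIs. For Cd83 it was 58.3% and 72.9%, for Ly75 53.3% and 64.3%, for Tbata 47.5% and 67.1%, and for Ctsl 45.0% and 55.3%. Foxn1 differed, with 14.7% and 21.2% of its UMIs in cortical gates, against 31.8% and 27.1% in Aire-high cells. Of the Ctsl UMIs 32.0% and 29.2% were in Ccl21a-high cells, and of the Tbata UMIs 28.2% and 15.6% were in Aire-high cells. These 2 gates are large, so their shares are set beside levels. Foxn1 stood at 0.881 and 0.908 in Aire-high cells, against 0.664 and 0.724 over all kept cells. Ctsl stood at 23.9 and 29.1 in Ccl21a-high cells, against 17.9 and 24.8. Tbata stood at 13.4 and 11.9 in Aire-high cells, against 11.4 and 16.4, and so below the level of all kept cells in the irradiated library. All 7 genes had a larger share of UMIs in cortical gates in the irradiated library, where those gates also held a larger share of all cells. Over all kept cells, the level of Prss16 went from 3.48 to 6.41 and that of Psmb11 from 0.743 to 1.17, and this mixes the number of cortical cells with the level within them.

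**Figure D2:**
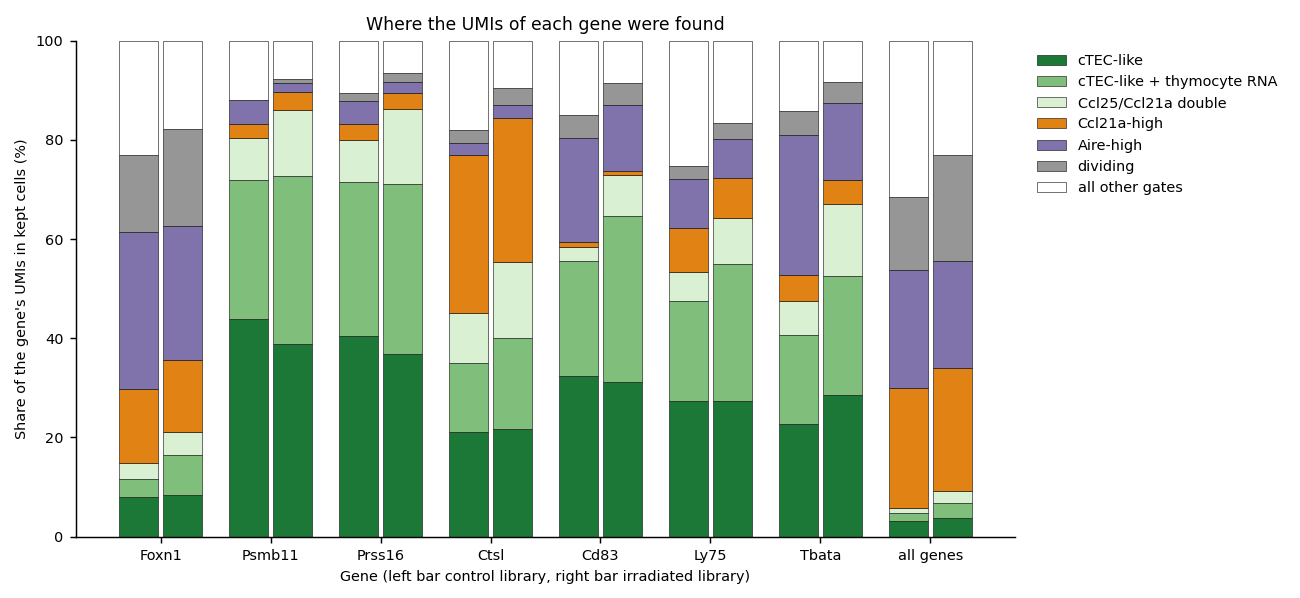
Share of the UMIs of each gene found in the gates, in percent of the gene's UMIs in kept cells, with the control library on the left and the irradiated library on the right of each pair and all genes together at the far right. Green parts are the 3 cortical gates, which held 80.3% and 86.0% of Psmb11 but 14.7% and 21.2% of Foxn1.

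To compare cells at the same depth, each cell was thinned at random to 4000 UMIs. A Foxn1 UMI was then found in 43.3% of control cTEC-like cells (32.9 to 54.2) and 45.9% of irradiated ones (38.2 to 53.7), and at full depth, 16123 and 15959.5 UMIs in the median cell, in 76.7% and 85.3%. In tuft-like cells, where free RNA could give the same UMIs, the thinned shares were 1.27% (0.154 to 4.50) and 4% (1.48 to 8.50), and the unthinned ones 8.23% and 9.33% at median depths of 13567.5 and 10504 UMIs. Psmb11 was found in 91.1% (83.2 to 96.1) and 89.4% (83.8 to 93.6) of thinned cTEC-like cells, against 0.633% of control tuft-like cells and 0 of 150 irradiated ones, which allows a share of up to 2%. Ctsl was found in all thinned cTEC-like cells, Prss16 in 100% and 97.6%, Tbata in 95.6% and 98.8%, Ly75 in 85.6% and 85.9%, and Cd83 in 51.1% and 58.2%. In thinned tuft-like cells, Ctsl was found in 31.6% and 37.3%, Tbata in 15.8% and 17.3%, Prss16 in 7.59% and 8%, Ly75 in 5.06% and 6.67%, and Cd83 in 2.53% of control cells and in 0 of 150 irradiated ones. Between the libraries, the intervals of the cTEC-like shares overlapped for all 7 genes.

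The genes were detected together in single cortical cells. In thinned cTEC-like cells the median number of the 7 genes with a UMI was 6 in both libraries, and 20 of 90 control cells (22.2%) and 43 of 170 irradiated cells (25.3%) held all 7. No cTEC-like cell held fewer than 3. Among the cells with thymocyte RNA, all 7 were found in 24.0% and 35.0% of cells, and the double cells had a median of 5. In Ccl21a-high and Aire-high cells, none of 1074 and 588 control and of 1739 and 923 irradiated cells held all 7.

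**Figure D3:**
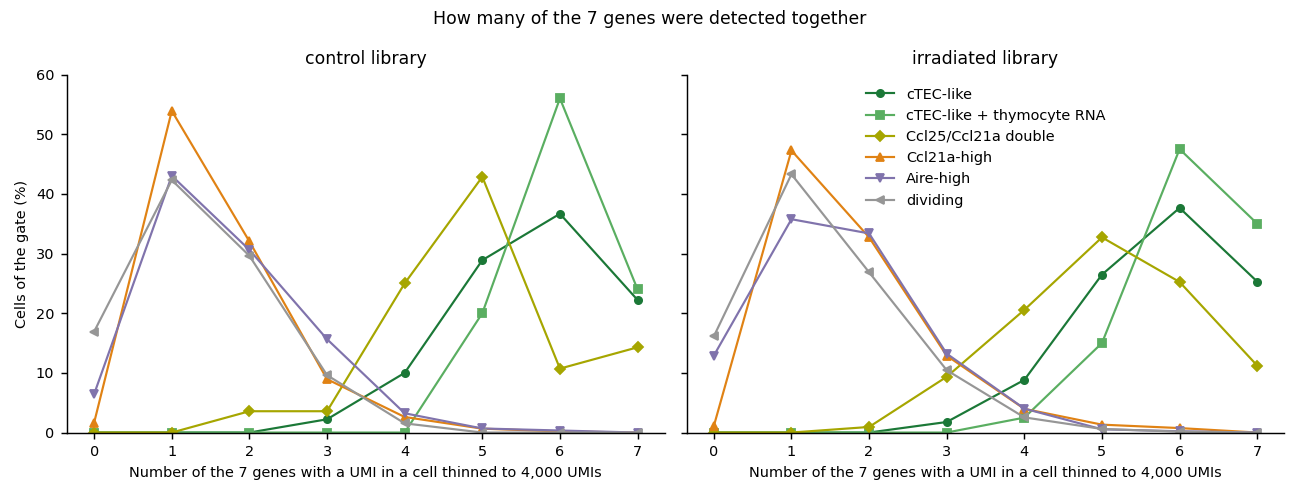
Percent of the cells of a gate by the number of the 7 genes with at least 1 UMI after thinning to 4000 UMIs, in the control (left) and irradiated (right) library. Cortical gates peaked at 5 or 6 genes, and Ccl21a-high, Aire-high and dividing cells at 1.

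Within cTEC-like cells the levels varied widely between cells. After thinning, Tbata ran from 0 to 184 UMIs per control cell with a median of 20 and quartiles of 5.25 and 49.5, and from 0 to 177 per irradiated cell with a median of 44 and quartiles of 17.25 and 66.75. Both quartiles were higher in the irradiated library, and the cells of the libraries overlapped over nearly the whole range. Prss16 had medians of 12 and 20.5 UMIs, with quartiles of 5 and 20 against 8 and 33.75. For Ctsl the medians were 41 and 51, with lower quartiles of 19.25 and 33.5. Psmb11 had medians of 3 and 4, Ly75 of 2 and 3, Cd83 of 1 in both and Foxn1 of 0 in both. The tenth of cells with the most UMIs held between 24.6% (Ctsl) and 40.4% (Foxn1) of a gene's thinned UMIs in control cTEC-like cells, and between 18.9% and 38.7% (Cd83) in irradiated ones.

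**Figure D4:**
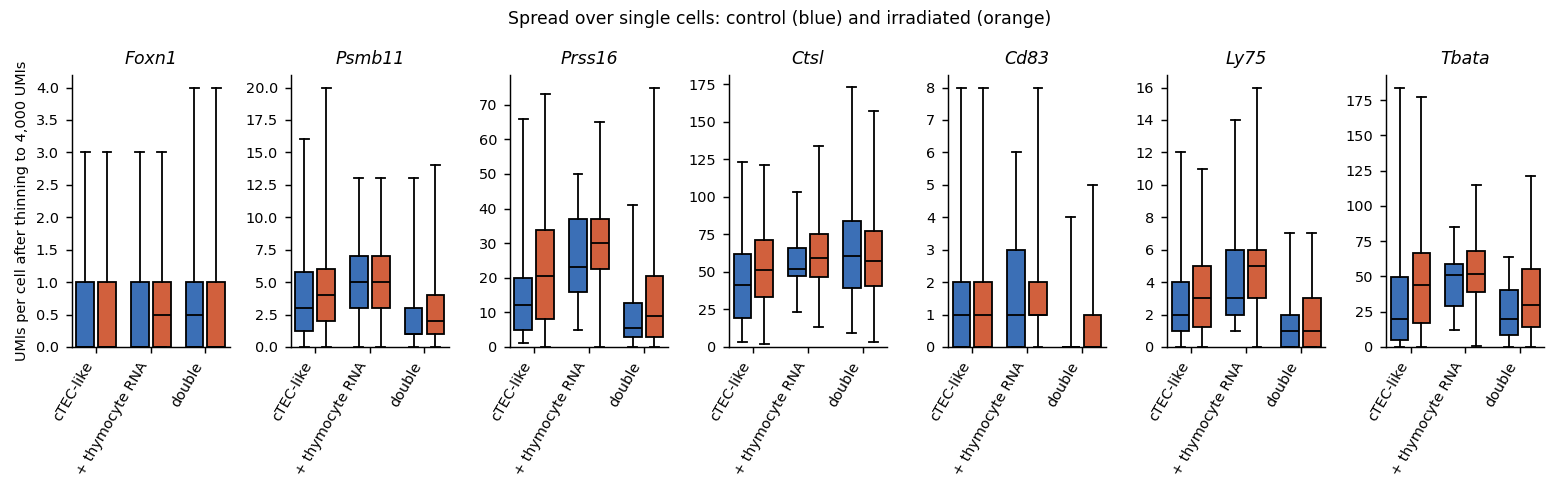
UMIs per cell of each gene after thinning to 4000 UMIs in the 3 cortical gates, for the control (blue) and irradiated (orange) library. Boxes span the quartiles with the median as a line, and whiskers reach the lowest and highest cell. The medians of Prss16 and Tbata in cTEC-like cells were higher in the irradiated library, 20.5 against 12 and 44 against 20, with wide overlap of the cells.

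cTEC-like cells with a Foxn1 UMI after thinning had a higher level of each of the other 6 genes than those without one in both libraries. The intervals did not overlap for Prss16 in both and for Psmb11, Ctsl and Tbata in the irradiated library. The share of all genes that differ in this way was not counted, so the difference cannot be called particular to these 6 genes. In thinned control cells, Prss16 stood at 47.2 (43.8 to 50.7) in the 39 cells with Foxn1 and at 34.9 (32.3 to 37.5) in the 51 cells without it. In irradiated cells Prss16 stood at 63.6 (60.8 to 66.5) in 78 cells and at 50.4 (48.2 to 52.8) in 92 cells. Psmb11 was at 12.0 and 10.05 in control cells with overlapping intervals, and at 13.2 (12.0 to 14.5) and 9.97 (8.98 to 11.1) in irradiated cells. In irradiated cells Ctsl stood at 146 against 123 and Tbata at 125 against 111. In irradiated double cells the order was turned for 2 genes with intervals that did not overlap, as Ctsl stood at 147 (142 to 153) with Foxn1 and 159 (154 to 164) without it, and Tbata at 85.8 (81.6 to 90.2) and 97.2 (93.4 to 101). In control double cells Tbata stood at 71.6 (64.8 to 79.0) with Foxn1 and 52.9 (47.0 to 59.2) without it. Among cells with thymocyte RNA, Prss16 stood at 60 and 74.6 with Foxn1 and at 65.7 and 76.9 without it, with overlapping intervals. Cells of a pool are not replicates, and these values are descriptions.

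The proportions of the genes to each other also differed between cortical gates. For each UMI of Psmb11 there were 11.6 (11.1 to 12.2) UMIs of Ctsl in control and 11.8 (11.4 to 12.2) in irradiated cTEC-like cells, but 28.7 (25.7 to 32.1) and 24.3 (22.9 to 25.8) in double cells. Foxn1 gave 0.161 (0.141 to 0.183) and 0.134 (0.122 to 0.148) UMIs per Psmb11 UMI in cTEC-like cells and 0.325 (0.258 to 0.406) and 0.221 (0.193 to 0.253) in double cells. Cd83 went the other way, with 0.323 (0.293 to 0.356) and 0.287 (0.267 to 0.308) against 0.142 (0.102 to 0.194) and 0.225 (0.196 to 0.257). Ly75 to Psmb11 stayed between 0.736 and 0.880 in all 3 cortical gates of both libraries. Double cells also held 81.0 and 63.6 Ccl21a UMIs per 10000, which the gate had set, and their part in these proportions was not tested.

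Between the libraries, cTEC-like cells of the irradiated library held more Tbata and Prss16, and the ranges for Foxn1 and Cd83 included no change. A gene was called higher or lower when its level changed by at least 1.5-fold, and only genes that reached 20 UMIs on both sides were counted. In cTEC-like cells 2.47% of 8023 genes were called higher and 6.26% lower, and 0 of the 7 genes were called in either direction. The median log2 ratio of irradiated over control was 0.18 for the 7 genes and -0.02 for the 8023 genes, and 5 of the 7 were above 0. Those 5 stood at percentiles from 74.1 (Psmb11) to 96.8 (Tbata) of the 8023 genes, and Foxn1 and Cd83 at 39.3 and 51.5. Ranges of the log2 ratios combine the opposite ends of both intervals.

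Foxn1, at 1.72 and 1.61 UMIs per 10000, had a log2 ratio of -0.10 (-0.40 to 0.21). Cd83, at 3.46 and 3.44, had one of -0.01 (-0.22 to 0.20). The ranges of both included 0. Psmb11 had a log2 ratio of 0.16 (0.04 to 0.28), Ctsl one of 0.18 (0.14 to 0.21) and Ly75 one of 0.20 (0.06 to 0.34). Prss16 went from 46.4 to 62.2, a log2 ratio of 0.42 (0.37 to 0.48), and stood at the 93.7th percentile of all 8023 genes. Tbata went from 85.1 to 124, a log2 ratio of 0.54 (0.50 to 0.58), and stood at the 96.8th percentile. Without the 3 cells of each library with the most UMIs of the gene, Prss16 stood at 41.5 (40.5 to 42.6) and 60.6 (59.7 to 61.5), and Tbata at 74.3 (72.9 to 75.7) and 119 (118 to 121). This left out 3 of 90 control and 3 of 170 irradiated cells, unequal shares that by themselves widen the gap. Other values moved with them. The gate marker Ccl25 went from 48.4 to 59.9 and Cxcl12 from 24.96 to 20.8. The cTEC markers that the gate did not use moved in both directions. Ackr4 went from 2.30 (2.06 to 2.55) to 1.10 (0.982 to 1.23), but Enpep from 1.37 (1.19 to 1.57) to 1.75 (1.60 to 1.91). Slc46a2 went from 3.51 (3.22 to 3.81) to 3.98 (3.76 to 4.22), with overlapping intervals. The keratin Krt5 went from 2.42 to 5.29. The summed Ccl21a-high marker list went from 3.96 to 7.45, with all 4 of its genes detected in both libraries. The fibroblast list went from 3.41 to 1.44, with Col1a1 and Pdgfra at 0 in both. Their part in the result was not tested.

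In cells with thymocyte RNA the ratios were smaller for Prss16 and Tbata. All 7 log2 ratios were above 0, from 0.05 (0.01 to 0.09) for Ctsl to 0.37 (-0.02 to 0.76) for Foxn1. The median was 0.12 for the 7 genes and -0.02 for the 6354 genes. Among those genes, the 7 stood at percentiles from 59.8 (Ctsl) to 91.0 (Foxn1). The ranges of Foxn1, Psmb11, Cd83 and Ly75 included 0. Prss16 had 0.20 (0.14 to 0.26) and Tbata 0.12 (0.07 to 0.16). Again 0 of the 7 were called, where 2.12% of 6354 genes were called higher and 6.17% lower. The summed thymocyte list stood at 30.5 and 29.5 UMIs per 10000 in these cells, with all 15 genes detected in both libraries, against 0.313 and 0.157 in cTEC-like cells.

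Double cells of the irradiated library held more Cd83 and Prss16. In them, 2 of the 7 genes were called higher and 0 lower, where 2.43% of 4972 genes were called higher and 6.82% lower. The called genes were Cd83, from 0.772 to 1.47 with a log2 ratio of 0.93 (0.33 to 1.55) on 46 and 264 UMIs, and Prss16, from 26.0 to 40.4 with one of 0.63 (0.53 to 0.74). Tbata had 0.55 (0.48 to 0.62) and Psmb11 0.27 (0.03 to 0.51). Foxn1 had -0.29 (-0.74 to 0.18). The control library contributed 28 cells to this gate. Of these, 3 held 76.1% of the Cd83 UMIs, and without the 3 highest cells of each library Cd83 stood at 0.208 (0.104 to 0.373) and 1.201 (1.04 to 1.38). For Prss16, 3 control cells held 40.0% of the UMIs, and the levels without the highest cells were 18.0 (16.9 to 19.2) and 35.1 (34.2 to 35.9). Leaving out 3 of 28 control but 3 of 107 irradiated cells lowers the control level more. The levels without these cells are therefore no check on either difference. The gate markers moved as well. Ccl25 went from 31.9 to 43.7 and Ccl21a from 81.0 to 63.6, and the summed lists of cTEC markers, with all 5 genes detected, and of Ccl21a-high markers, with all 4, went from 48.5 to 61.7 and from 94.6 to 78.8. The cTEC list did not rise as a whole. Cxcl12 went from 10.2 to 11.8 and Slc46a2 from 4.45 to 4.82. Enpep fell from 1.28 (1.00 to 1.60) to 0.745 (0.625 to 0.883), and Ackr4 stood at 0.671 and 0.590 with overlapping intervals. Their part in the result was not tested.

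**Figure D5:**
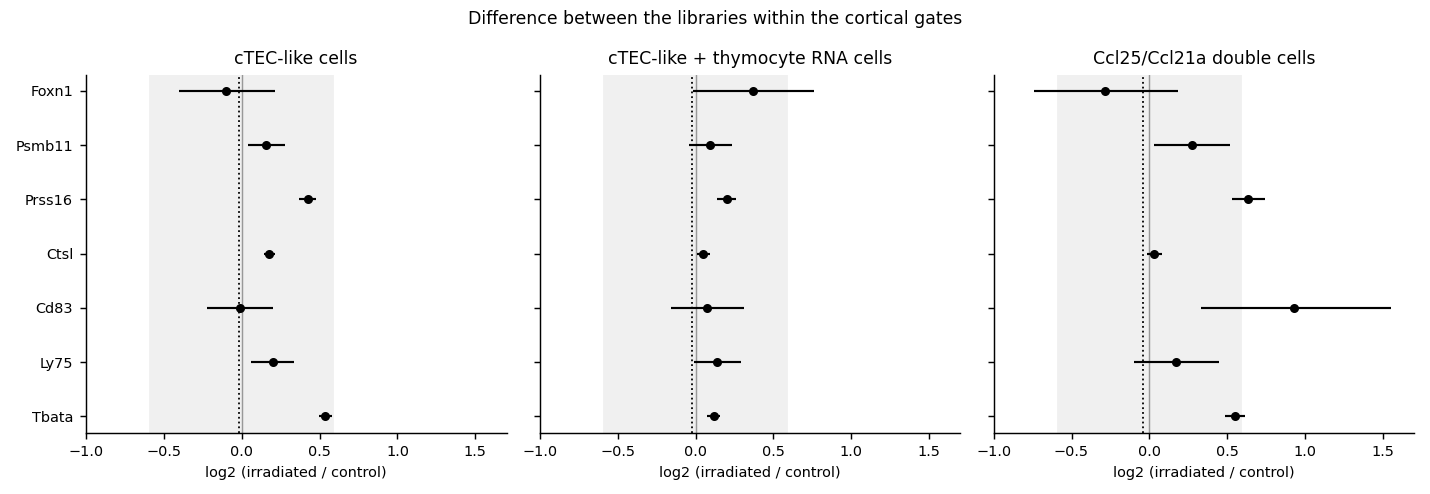
Log2 ratio of the irradiated over the control level of each gene in the 3 cortical gates. Bars combine the opposite ends of the 95% intervals, the grey band marks changes under 1.5-fold, and the dotted line marks the median of all genes tested. Prss16 and Tbata lay above 0 in all 3 gates, and Foxn1 included 0 in all 3.

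In the largest medullary gates the ratios between the libraries were of either sign. In Ccl21a-high cells, Ctsl went from 23.9 to 29.1, a log2 ratio of 0.29 (0.26 to 0.31), Prss16 had 0.85 (0.66 to 1.04) and Psmb11 0.93 (0.50 to 1.37). Without the 3 cells of each library with the most Psmb11 UMIs, its levels there were 0.0640 (0.0506 to 0.0797) and 0.138 (0.122 to 0.156). Ccl21a-high cells held 5.21 (4.24 to 6.44) and 4.90 (4.35 to 5.55) Prss16 UMIs per Psmb11 UMI. Aire-high cells held 4.43 (3.77 to 5.22) and 6.51 (5.54 to 7.71), and cTEC-like cells 4.33 and 5.19. In dividing cells it was 102 and 14.0, on 3 and 59 Psmb11 UMIs. What part free RNA or doublets had in these UMIs was not tested. In Aire-high cells, Foxn1 had a log2 ratio of 0.04 (-0.12 to 0.20) and Tbata one of -0.18 (-0.22 to -0.13), while Ctsl had 0.69 (0.59 to 0.79). Of the Ctsl UMIs there, 31.7% in the control and 27.6% in the irradiated library came from 3 cells. The Ctsl levels without those cells were 1.24 and 2.11. In Aire-intermediate cells the ratio of Prss16 was 2.56 (2.20 to 2.93), but 64.8% of the irradiated UMIs came from 3 of 367 cells, and without the 3 highest cells of each library the levels were 0.291 and 0.673. The Foxn1 ratio ranges included 0 in all 14 groups of cells.

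Other genes of the same routes were counted from fixed lists in the cTEC-like cells, with the same call and background. Of the 6 catalytic proteasome subunits other than β5t, 0 were called, and the median log2 ratio was 0.10. They ran from Psmb8, the immunoproteasome subunit β5i, with -0.12 (-0.42 to 0.19) and Psmb7, the constitutive β2, with 0.00 (-0.34 to 0.35), to Psmb5, the constitutive β5, with 0.20 (-0.05 to 0.44) and Psmb9 with 0.20 (0.06 to 0.34). Of 12 genes of the MHC class I route, 0 were called and the median was 0.03. Psme1, a subunit of the proteasome activator PA28, had -0.47 (-1.19 to 0.25) and the chaperone Calr -0.25 (-0.41 to -0.10), while the peptide transporter Tap1 had 0.32 (0.02 to 0.62) and H2-K1, a class I heavy chain with near-identical relatives and so uncertain, 0.34 (0.28 to 0.40).

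Of 16 genes of lysosomal proteases and the MHC class II route, 13 had enough UMIs, 0 were called higher and 2 lower, and the median was -0.02. The called genes were both proteases, Ctsz (cathepsin Z) with -0.99 (-2.003 to 0.009) on 36 and 33 UMIs and Lgmn (legumain) with -0.82 (-1.88 to 0.23) on 31 and 32 UMIs, and their ranges included 0. Ctsd (cathepsin D) had 0.49 (0.03 to 0.95) and H2-Oa 0.20 (-0.17 to 0.57). Of 8 further cortical niche genes, 6 had enough UMIs and 0 were called, from Wnt4 with -0.17 (-0.35 to -0.003) and the Notch ligand Dll4 with -0.11 (-0.56 to 0.35) to the keratins Krt8 with 0.01 and Krt18 with 0.11 (0.06 to 0.16). Of 12 transcription factors and receptors that are reported upstream of or beside Foxn1, 10 had enough UMIs and 0 were called. Eya1 had -0.52 (-0.98 to -0.06), and Bmpr1a, a BMP receptor, had 0.29 (-0.13 to 0.72) and Trp63 0.14 (-0.10 to 0.38).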

How the data were processed

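Reads were trimmed, aligned to mm10 and counted with Cell Ranger by the authors, who deposited UMI counts per gene and barcode without normalization. The matrix headers give version 5.0.1 and the labels 5.1. Chemistry (version 2 in the labels, version 3 in the paper) and age (4 or 9 weeks within the labels) are stated differently.

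Barcodes were kept with more than 2000 and fewer than 7500 detected genes, counted over genes in at least 5 barcodes, and under 15% mitochondrial UMIs. Gates were applied in the order of the plot of levels. The thymocyte gate left out Tcf7 from its list. Tuft-like cells had 4 of 6 markers and 20 UMIs of them, dividing cells 5 of 9 and 5 UMIs, keratinocyte-like 3 of 7, microfold-like 3 of 4 and enterocyte-like 3 of 5, each with 20 UMIs. Keratinocyte-like, microfold-like and enterocyte-like cells also had fewer than 10 Aire UMIs. Ccl21a-high cells had 20 Ccl21a UMIs and fewer than 3 Aire UMIs, so that their low Aire was set by the gate. Aire-high cells had 10 and Aire-intermediate cells 3 Aire UMIs, and Pdpn-positive cells 2 Pdpn UMIs. Gate minimums were set on marker UMIs after the files had been opened. No doublet caller was run. Where the 3 highest cells of each library were left out, they were a larger share of the library with fewer cells in that gate. The members and lists were chosen with earlier results of these data known. Named list genes are the 2 highest and 2 lowest log2 ratios of a list. For 1 list, 1 gene so chosen is not reported here. Likeness used log2 of the level plus 0.1. The calculation of ratios and their ranges was checked on simulated counts with known folds, which is no test of the libraries. Python 3.11.15, numpy 2.4.6, scipy 1.17.1, pandas 2.3.3 and matplotlib 3.10.9 were used, with 1 random seed.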

Additional observations from a re-analysis of the deposited data

Results flagged for a closer look

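Some genes had a log2 ratio of irradiated over control above 0 in cTEC-like cells and below 0 in another gate, with ranges that excluded 0 in both. None of these differences was tested, since there was 1 library per condition.

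In other cells with thymocyte RNA, 18 control and 48 irradiated cells, 4 genes were lower in the irradiated library. The log2 ratio was -0.95 for Psmb11, -0.63 for Prss16, -1.04 for Ctsl and -0.91 for Tbata. In the control library 94.6% of the Psmb11 UMIs of this gate came from 3 cells, and without the 3 highest cells of each library Psmb11 stood at 0.201 (0.0866 to 0.395) among control cells and at 0.2998 (0.190 to 0.450) among irradiated ones. Without such cells Prss16 stood at 0.627 and 2.42 and Ctsl at 2.26 and 10.2. Tbata stood at 7.50 (6.67 to 8.40) and 6.27 (5.73 to 6.86), with overlapping intervals. Leaving out 3 of 18 control but 3 of 48 irradiated cells lowers the control level more. The turned direction of Prss16 and Ctsl is therefore no result about the libraries.

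In Aire-high cells the ratio was -0.53 for Psmb11 and -0.18 for Tbata, at percentiles 9.66 and 29.7 of the genes with enough UMIs there. For Psmb11, 43.8% of the control and 31.4% of the irradiated UMIs came from 3 cells, and the levels without them were 0.0849 (0.0694 to 0.103) and 0.0714 (0.0590 to 0.0856). Tbata also stood below 0 in dividing cells, with -0.18, and in Aire-intermediate cells, with -0.20. Its percentiles there were 21.2 and 30.7, so in these gates and in Aire-high cells many genes had lower ratios. Ctsl stood at -0.82 in enterocyte-like cells, where 3 of 63 control cells held 78.2% of its UMIs. Without the 3 highest cells of each library the Ctsl levels there were 0.638 (0.495 to 0.810) and 0.829 (0.664 to 1.02), the other direction with overlapping intervals. In Pdpn-positive cells Ctsl stood at -0.31, with 150 control and 96 irradiated cells.

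The barcodes that the limits left out, 1704 control and 2097 irradiated, entered no comparison. In them the level of 3 genes was higher in the irradiated library than in the control library beyond the intervals, which cover counting error only. The share of all genes that differ as much in these barcodes was not counted. Psmb11 stood at 1.76 UMIs per 10000 (1.66 to 1.86) against 1.52, Prss16 at 7.17 (6.97 to 7.38) against 6.45, and Tbata at 18.9 (18.5 to 19.2) against 17.7. These levels were above those of the kept cells, which were 1.17, 6.41 and 16.4 in the irradiated and 0.743, 3.48 and 11.4 in the control library. Ctsl was lower in the irradiated library, 18.3 (18.0 to 18.7) against 19.5 (19.2 to 19.9), while in kept cells it stood at 24.8 against 17.9. What these barcodes held was not examined further.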

How the results depend on the processing

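The log2 ratio of each gene between the libraries in cTEC-like cells was recomputed under 10 alternatives and under 2 that were chosen after seeing the data, without barcodes found in both libraries and with Ccl21a under 5 UMIs. Of the 84 values, 71 lay within the range of the main value and 13 outside it, and none turned the direction of a ratio whose range excluded 0. With each gate minimum doubled, Ctsl had 0.10, Ly75 0.046, Prss16 0.28 and Tbata 0.42. With cells thinned to 4000 UMIs, Ctsl had 0.27 and Prss16 0.49. As a mean over cells, Ctsl had 0.27. With the cells with thymocyte RNA added, Ctsl had 0.14, Prss16 0.35 and Tbata 0.38. Without the 5% of cells with most UMIs, Ctsl had 0.22. With Ccl21a under 5 UMIs, which left 85 control and 144 irradiated cells, Prss16 had 0.52 and Tbata 0.61, past 1.5-fold, the 1 call among all settings. Foxn1 ranged from -0.18 to 0.12 and Cd83 from -0.17 to 0.11. The ratio of cTEC-like cells over all other cells stayed above 0 for every gene, library and alternative, but its size was less stable. Of its values, 85 lay within the range of the main value and 83 outside it. The longest moves were those of Psmb11 in the control library, from a log2 ratio of 4.64 to 6.13 without the 1% of cells with most of its UMIs, and of Prss16, from 4.44 to 5.99. In the main setting, all other cells included the cTEC-like cells with thymocyte RNA and the double cells. These held 28.0% and 8.43% of the control Psmb11 UMIs, and 31.0% and 8.63% of those of Prss16. The cause of the moves was not tested. No paired analysis was possible because there was 1 library per condition. Foxn1 and Cd83, with 270 and 543 UMIs in control cTEC-like cells, were the genes whose ratios depth limited most.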

Other observations

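The thymoproteasome holds β5t together with the subunits β1i and β2i, encoded by Psmb9 and Psmb10. Both genes were higher in cTEC-like cells than in Aire-high and Ccl21a-high cells. Psmb9 stood at 8.09 (7.65 to 8.55) and 9.29 (8.94 to 9.65) UMIs per 10000 in control and irradiated cTEC-like cells, at 1.67 and 1.54 in Aire-high cells and at 2.38 and 2.46 in Ccl21a-high cells. Psmb10 stood at 10.7 (10.2 to 11.3) and 11.3 (10.96 to 11.7), against 6.76 and 6.85 and against 2.47 and 2.69. Psmb8, which encodes the β5i of the immunoproteasome in the place of β5t, had a lower level in cTEC-like cells, at 1.79 (1.59 to 2.01) and 1.65 (1.51 to 1.81), than in Aire-high cells, at 2.56 and 2.45.

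The activator subunit Psme1 was low in cTEC-like cells, at 0.364 (0.275 to 0.471) and 0.262 (0.206 to 0.328), against 4.32 and 4.56 in Aire-high cells. Ctss, cathepsin S, stood at 0.0255 and 0.0349 in cTEC-like cells on 4 and 10 UMIs and at 2.69 and 2.39 in Aire-high cells. Between these gates its order was the reverse of that of Ctsl. For Psmb8, Psme1 and Ctss the levels in Ccl21a-high cells are not reported here. Pax1, a paired-box factor of the thymic primordium, stood at 7.93 and 8.61 in cTEC-like cells, at 1.60 in Ccl21a-high cells of both libraries, and at 0.476 and 0.526 in Aire-high cells.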
